A study of Solanum lycopersicum with 6 samples.

Results

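Aux/IAA and auxin response factor genes encode the nuclear end of auxin signalling. Auxin response factors (ARF) bind the promoters of auxin-responsive genes, and Aux/IAA proteins bind many ARF proteins and repress transcription there. This lasts until auxin brings the Aux/IAA protein to the TIR1/AFB receptors and to degradation. Several Aux/IAA genes are themselves switched on by auxin, and in tomato fruit the family is known for parts in fruit set, fruit growth and ripening. The genes described here are the repressor genes IAA2, IAA3, IAA7, IAA16, IAA17 and IAA27 and the response factor gene ARF3. Whether these repressors bind the ARF3 protein was not examined here. Members were the probe sets whose gene symbol in the platform annotation is exactly one of these 7 names. A probe set is a group of short oligonucleotides on the array whose signals are summarised as 1 value. There were 14 member probe sets, 2 for each gene, among 10101 tested probe sets of which 909 carried a gene symbol (802 different symbols). Of the 2 probe sets of a gene, the one with the larger range over the 6 arrays is called the wider and the other the narrower.

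RNA came from mature green fruits of Micro-Tom, a dwarf tomato cultivar, and was hybridised as biotin-labelled cRNA. The control group held 3 arrays of fruits from plants grown under normal conditions, and the drought group held 3 arrays of fruits from plants grown under drought. The greenhouse was held at 25 °C during the day and at 20 °C during the evening for all plants, and fruits were picked between 30 and 40 days after flowering. The fertilizer solution was diluted 500 times in both groups and was given once a week to the stressed plants. The labels give no frequency for the control plants. Whether the arrays of a group stand for different plants is not said in the labels, so the p-values below measure only the spread between these arrays, which may be technical. The comparison asks how drought-grown fruits differed in transcript levels from control fruits.

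The deposited values are on a log2 scale and moved very little for most probe sets. How they were summarised is not stated and the differences may be strongly shrunk, so a small difference here does not show that transcript levels were equal. The difference between the highest and the lowest of the 6 arrays was under 0.001 for 75.7% of the tested probe sets. It was at most 0.000467 for the 69 bacterial and phage spike-in probe sets, which match no tomato gene. Over all tested probe sets control replicate 3 lay nearer to each drought array (Euclidean distance 6.81 to 7.62) than to the other controls (13.1 and 15.2), so values are also given without it where it matters. Among marker genes of the tissue, all 3 chlorophyll-binding protein probe sets (CAB4, CAB5 and CAB6A) lay above the 25th percentile of every array. Most probe sets do so by definition, so this alone does not show green tissue. CAB5, at 7.22 to 7.43, lay below the median of every array (7.90 to 7.91). CAB4, at 9.58 to 9.65, and CAB6A, at 10.69 to 10.70, lay above it. Of the 10 probe sets of fruit and ripening markers, 3 lay below the 25th percentile on every array, those of PG2 and RIN and 1 of Psy1, while those of E8, NOR, TDR4, TAGL1, 2A11 and the other 2 of Psy1 did not. No seed marker was found by symbol.

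Of the 14 member probe sets, 1 passed the test over all probe sets (limma, Benjamini-Hochberg adjusted p under 0.05), against 0.762% of all tested probe sets, made up of 0.238% lower and 0.525% higher in drought. It belongs to ARF3 and was lower in drought by 0.00015 on the log2 scale. The largest difference was that of IAA3, which was 0.081 lower in drought and missed the threshold. For IAA2, IAA7, IAA16, IAA17 and IAA27 the drought and control arrays overlapped at both probe sets.

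IAA3, which encodes an Aux/IAA repressor known in tomato for linking auxin and ethylene responses, had lower values on every drought array than on every control array at both of its probe sets. The wider IAA3 probe set read 8.494, 8.548 and 8.473 on control replicates 1 to 3. It read 8.424, 8.383 and 8.466 on drought replicates 1 to 3. The groups did not overlap, but the gap between the lowest control array and the highest drought array was only 0.0072, or 4.35% of the range over the 6 arrays, and drought replicate 3 lay almost level with control replicate 3. The control mean was 8.505 ± 0.039 and the drought mean 8.424 ± 0.041 (SD, n = 3 each). The log2 difference was -0.081 ± 0.031 (SE), with a 95% interval of -0.165 to 0.0030 and a limma adjusted p of 0.211. Read as a linear ratio of the deposited values, drought was 0.945 of control. Of all tested probe sets, 1.81% had a larger difference in either direction.

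The narrower IAA3 probe set read 6.12808, 6.12762 and 6.12562 in control and 6.12463, 6.12488 and 6.12551 in drought. Control replicate 3 lay close to the drought arrays and apart from the other controls, and the gap between the groups was 0.000103. Its difference was -0.0021 ± 0.00076 (SE), with an adjusted p of 0.196, and all 6 arrays lay below the 25th percentile of their array. Without control replicate 3 it was -0.0028 with a limma adjusted p of 0.0497. That array was singled out because it lay nearer to the drought arrays than to the other controls. Without it 546 of all tested probe sets passed, against 77 with all arrays, so this value is no separate support for a change in IAA3. For the wider IAA3 probe set the difference ran from -0.102 without drought replicate 3 to -0.060 without control replicate 2, and the adjusted p from 0.186 to 0.438 over the 6 ways of leaving out 1 array. In bulk fruit, fewer cells of a type and less RNA per cell cannot be told apart. The 3 epidermis marker genes on the array (LE16, ltpg1 and TSW12, lipid transfer proteins) also had lower means in drought. The sum of their linear values ran from 4501 to 4516 in control and from 4481 to 4500.8 in drought, and none of the 3 passed the test. The 10 probe sets of fruit markers all had lower means in drought too, with linear sums of 22046 to 22100 in control and 22032 to 22047 in drought. So did the 3 chlorophyll-binding protein probe sets, with linear sums of 2586 to 2636 in control and 2569 to 2619 in drought, so that every marker probe set held had a lower mean in drought. Lower means were found in 50.8% of all tested probe sets. The largest marker difference was that of RIN, at -0.140 (limma adjusted p = 0.232), larger than that of IAA3. All drought arrays lay below all control arrays for RIN and also for TSW12 (-0.020), TDR4 (-0.018) and ltpg1 (-0.0051). Among all tested probe sets this was so for 14.3%. E8 (-0.023) and CAB5 (-0.022) differed by more than TSW12, but their groups overlapped. Other marker differences were minute, at -1.0e-07 for 2A11, -2.1e-06 for PG2 and -3.4e-06 for TAGL1. The fruit sum is weighted to 2A11, by far the highest of its list at 14.13 on the log2 scale. The part of these shifts in the IAA3 values was not tested.

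ARF3 encodes a response factor. In Arabidopsis the gene of this name, also called ETTIN, patterns the gynoecium, and in tomato ARF3 has been tied to epidermal cells and trichomes. Its narrower probe set fell in drought and was the called member. It read 7.65781, 7.65783 and 7.65783 in control and 7.65766, 7.65770 and 7.65767 in drought. The groups did not overlap, with a gap of 61.4% of the range over the 6 arrays. The difference was -0.00015 ± 1.4e-05 (SE, limma adjusted p = 0.0482), which is a change of -0.0102% on the linear scale.

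The wider ARF3 probe set read 8.79389, 8.79380 and 8.79387 in control and 8.79366, 8.79375 and 8.79369 in drought. These groups did not overlap either, and the gap was 24.5% of the range. Its difference, also -0.00015, had a standard error of 3.5e-05 and a limma adjusted p of 0.0999. The probe sets of ARF3 therefore differed by nearly the same amount. Both differences were larger than the largest difference between group means of a spike-in (0.000121), where no tomato transcript is read, and smaller than the range that the most variable spike-in covered over the 6 arrays (0.000467). Both were also far smaller than the largest difference between group means among the 14 tomato housekeeping controls of the array (0.0037). The most variable of those controls covered a range of 0.0067. The call of the narrower ARF3 probe set was lost after quantile normalization (limma adjusted p = 0.171), with the replicate number as a block (0.115), with unmoderated variances (0.0748), with a trended robust prior (0.0512) and when the 2 probe sets were averaged (0.0543). It was kept without the dimmest 30% of probe sets (limma adjusted p = 0.0431) and with array weights (0.0443). After centring each array on its median it was also kept (0.0201), but there 9406 of all tested probe sets passed. Leaving out 1 array at a time gave limma adjusted p-values from 0.0491 without control replicate 3 to 0.188 without drought replicate 3, with the call lost in every case but the first. In that case 546 of all tested probe sets passed, against 77 with all arrays.

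**Figure D1:**
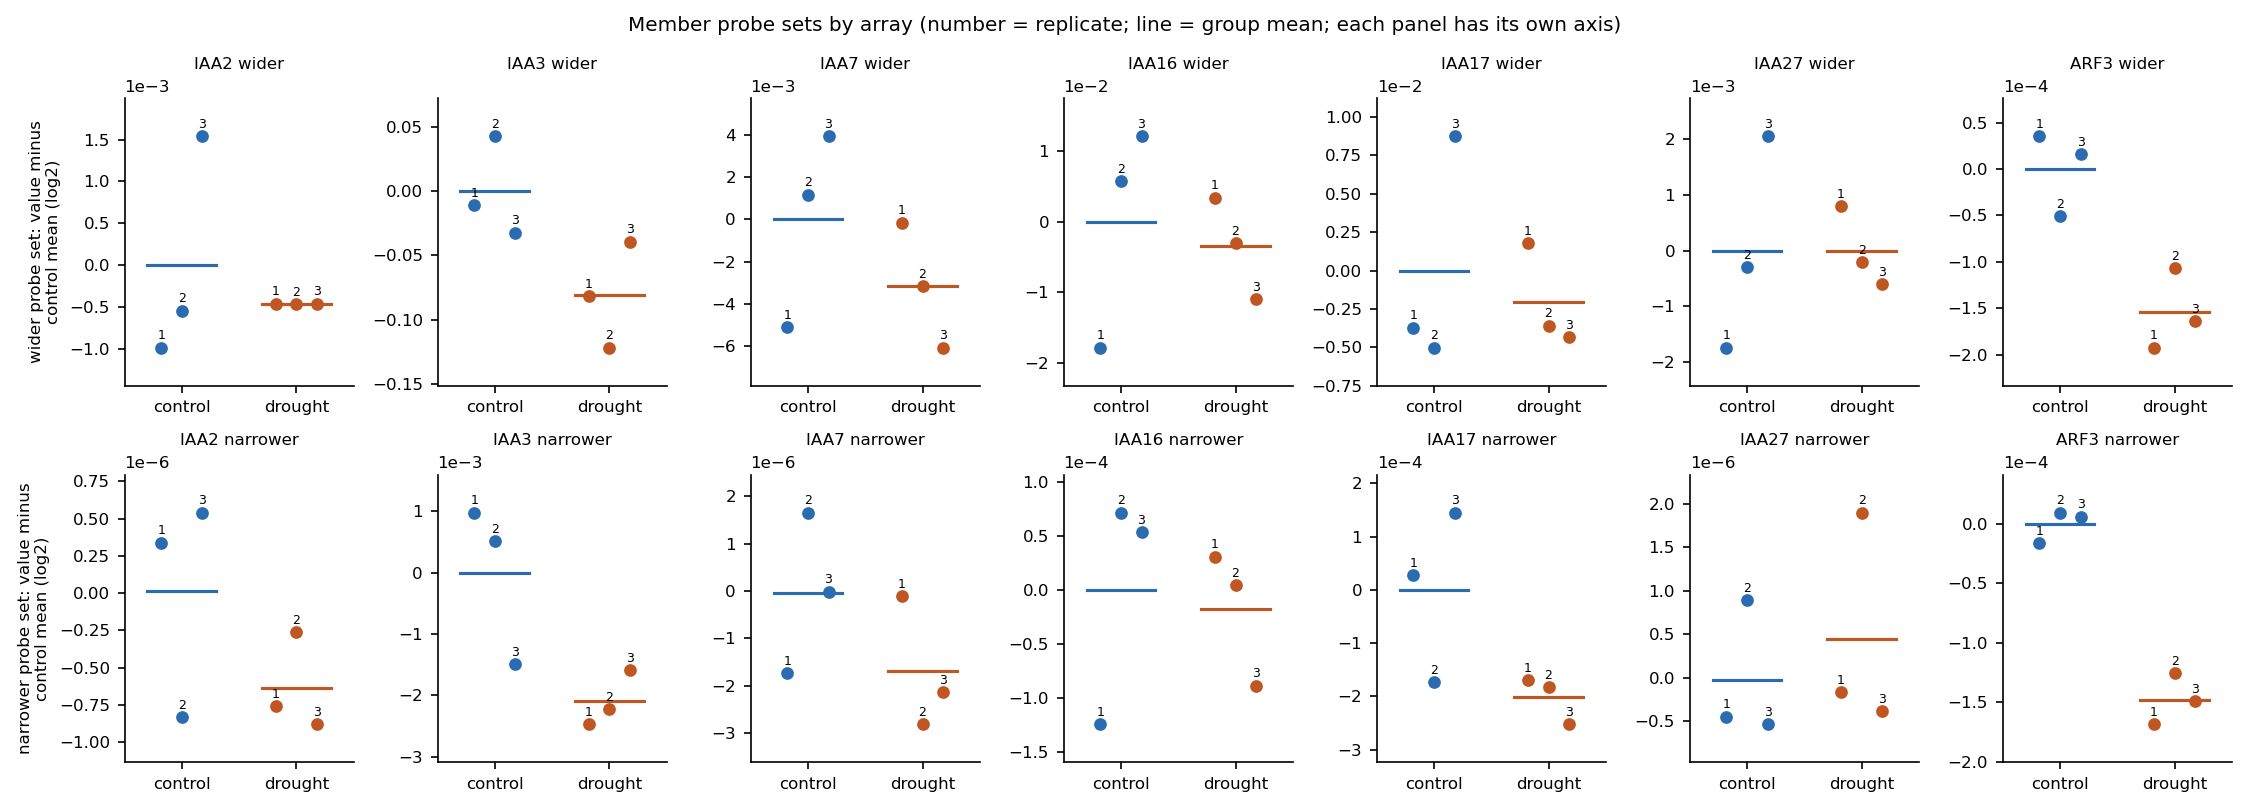
Each panel plots 1 member probe set, with the value on each array minus the control mean (log2) on the vertical axis, control in blue, drought in orange, the replicate number beside each point and the group mean as a line. The top row holds the wider and the bottom row the narrower probe set of each gene, and the vertical scale differs between panels. In the 4 panels of IAA3 and ARF3 all drought points lie below all control points, and in the other 10 panels the groups overlap.

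The other 5 repressor genes are given by the wider probe set of each. IAA16 read 8.416, 8.440 and 8.446 in control and 8.438, 8.431 and 8.423 in drought. The drought arrays lay inside the span of the controls, with control replicate 1 lowest and control replicate 3 highest. The difference was -0.0035 ± 0.0096 (SE, limma adjusted p = 0.879), and its 95% interval of -0.029 to 0.022 holds changes in either direction. It turned to 0.0026 without control replicate 3.

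IAA7 read 6.9167, 6.9229 and 6.9257 in control and 6.9216, 6.9186 and 6.9157 in drought. Drought replicate 3 was the lowest array and control replicate 3 the highest, and the groups overlapped. The difference was -0.0031 ± 0.0030 (SE, limma adjusted p = 0.590, 95% interval -0.011 to 0.0050). It was -0.0012 without control replicate 3 and -0.0057 without control replicate 1.

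IAA17, whose protein is known in tomato as a regulator of fruit size, read 9.6419, 9.6406 and 9.6544 in control and 9.6474, 9.6421 and 9.6413 in drought. Control replicate 3 stood above all other arrays, control replicate 2 was the lowest, and control replicate 1 lay among the drought arrays. The difference of -0.0021 ± 0.0046 (SE, limma adjusted p = 0.842, 95% interval -0.014 to 0.010) turned to 0.0023 without control replicate 3.

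IAA27, whose lowered expression in tomato is known to alter auxin sensitivity and fruit development, read 9.0520, 9.0535 and 9.0558 in control and 9.0546, 9.0535 and 9.0532 in drought. The controls spanned all drought arrays. The group means were almost equal, with a difference of -8.2e-06 ± 0.0011 (SE, limma adjusted p = 0.999, 95% interval -0.0030 to 0.0030), and it turned to 0.0010 without control replicate 3.

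IAA2 read 6.62556, 6.62601 and 6.62810 in control and 6.62609, 6.62609 and 6.62609 in drought. The drought arrays lay within 8.4e-06 of each other, between control replicates 2 and 3, while the control arrays spanned 0.00253. The difference was -0.00047 ± 0.00075 (SE, limma adjusted p = 0.763). Without control replicate 3 it was 0.00030 and all 3 drought arrays lay above the 2 controls left.

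**Figure D2:**
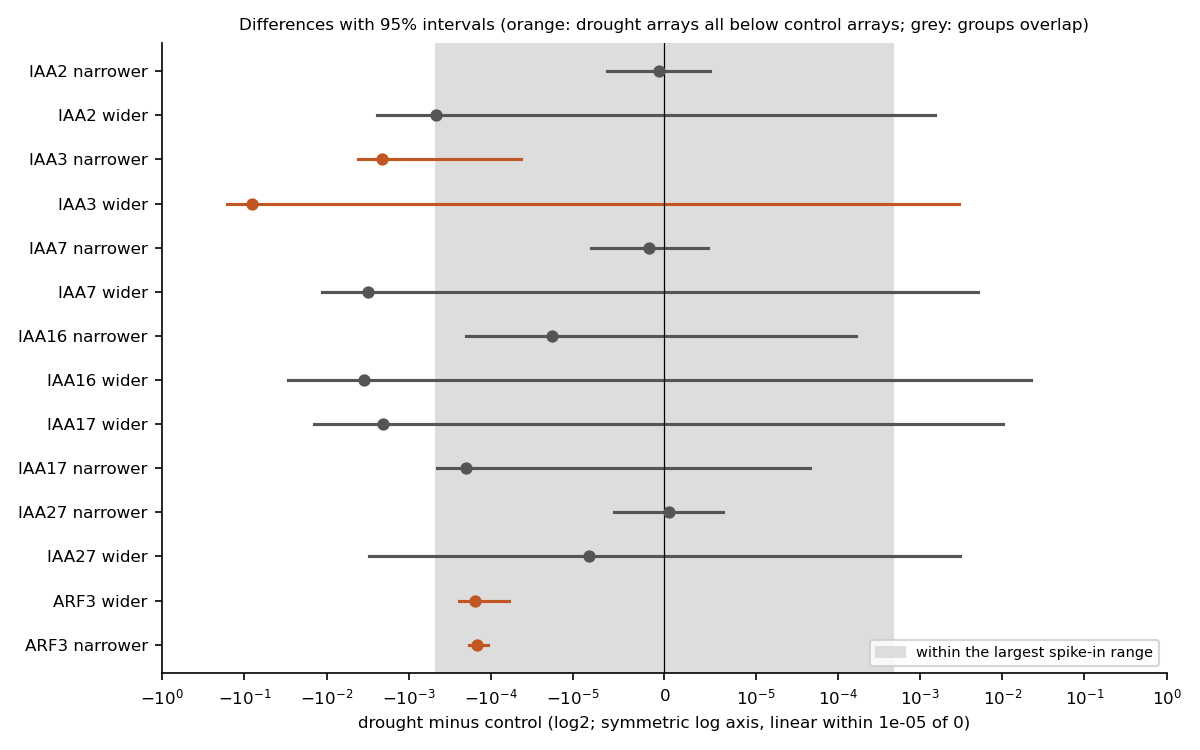
The drought minus control difference of each member probe set (log2, on a symmetric log axis that is linear near 0) is plotted with its 95% interval, in orange where the drought arrays all lay below the control arrays and in grey where the groups overlapped. The shaded band runs to the range of the most variable spike-in on each side of 0 (0.000467). Both ARF3 points lie inside the band, both IAA3 points lie outside it, and the interval of the wider IAA3 probe set reaches past 0 to 0.0030.

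Over the 14 probe sets, 13 had lower means in drought and 1 a higher mean, where 50.8% of all tested probe sets had lower means. The 14 are pairs from 7 genes, and only 5 of the 14 differences were larger than the largest spike-in range (0.000467). The median difference was -0.00018 for the members and -1.1e-07 for all tested probe sets. With 1 array left out, 8 of 14 were lower without control replicate 3 and 10 of 14 without drought replicate 3. The count was 12 without control replicate 2 and 13 in the other cases, so the direction rested partly on single arrays. It also moved with scaling, with 12 of 14 lower after quantile normalization and 14 of 14 after centring each array on its median, settings under which 90.8% and 96.7% of all tested probe sets were lower. All drought arrays lay below all control arrays in 4 of 14 member probe sets and above them in 0, against 14.3% and 20.5% of all tested probe sets (34.8% in either direction). That split turned with scaling, from 1443 lower and 2068 higher as deposited to 3454 and 332 after quantile normalization and 9266 and 214 after centring, where 5 and 12 of the 14 members lay wholly below control. The 4 were the pairs of IAA3 and ARF3, so they stand for 2 genes. At an unadjusted limma p under 0.05 there were 3 of 14 members, against 25.0% of all tested probe sets. A difference of 0.01 or more was seen in 1 member, the wider IAA3 probe set, against 6.16% of all tested probe sets.

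The 2 probe sets of an Aux/IAA gene differed widely in how far they moved. The probe sets of such a pair share an accession and a name up to the suffix S1 or A1. What the suffix stands for is not stated in the sources used here. It may mark the strand that is read, in which case 1 probe set of a pair would not measure the gene's own transcript, and averages over a pair and the agreement of the IAA3 probe sets would have to be read with that limit. For IAA7 the range over the 6 arrays was 0.01003 at the wider and 4.5e-06 at the narrower probe set. The same contrast was 0.0025 against 1.4e-06 for IAA2 and 0.0038 against 2.4e-06 for IAA27. The ratio of the ranges was 153 for IAA16, 47.9 for IAA3 and 34.7 for IAA17. In IAA17 the A1 probe set was the one that moved more, and in the other 5 genes the S1 probe set was. The 2 probe sets of ARF3, which come from different accessions, had ranges of 0.000228 and 0.000178. A name up to this suffix was shared by 707 pairs among all tested probe sets, S1 moved more in 68.9% of them, and the ratio of ranges was over 10 in 57.0%, against 6 of 6 Aux/IAA pairs. Directions agreed in sign for all genes but IAA27, whose A1 probe set differed by 4.8e-07. When the probe sets of a gene were averaged, 0 of the 7 genes passed, with IAA3 at -0.042 ± 0.016 (SE, limma adjusted p = 0.207).

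**Figure D3:**
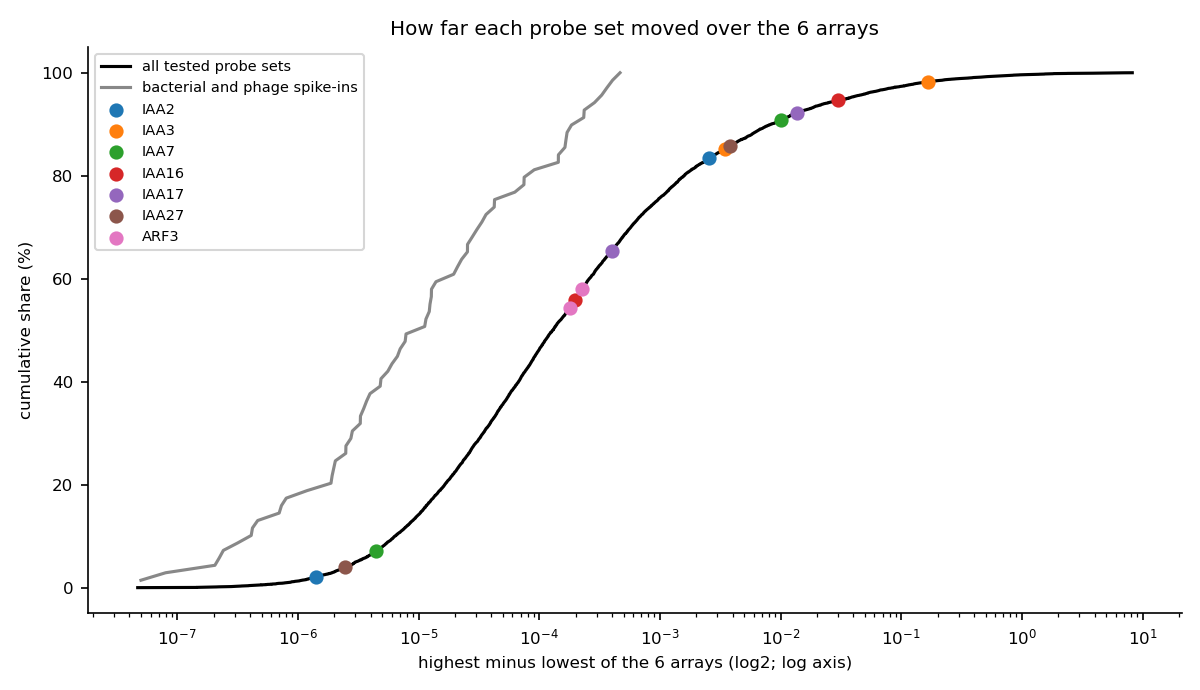
The horizontal axis gives the highest minus the lowest of the 6 arrays for each probe set (log2, on a log axis) and the vertical axis the cumulative share of probe sets in percent, for all tested probe sets in black and for the spike-ins in grey. Coloured points are the members. They run from 1.4e-06 for a probe set of IAA2 to 0.165 for a probe set of IAA3, and 7 of the 14 moved further than any spike-in.

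At the wider probe sets, 5 of the repressor genes shared a pattern over the arrays that did not follow the treatment. IAA2, IAA7, IAA16, IAA17 and IAA27 all had their highest value there on control replicate 3. This was so for 15.3% of all tested probe sets. The wider probe sets of IAA3 and ARF3 were highest on other control arrays and were left out of this group. Leaving them out fixed the 5 of 5, so the 15.3% does not test whether the members share this array. In 4 of the 5, all but IAA2, the drought arrays also stood in the same order, with drought replicate 1 highest and drought replicate 3 lowest. Of the 10101 tested probe sets, 1832 had this order. The narrower probe sets did not all share this, since those of IAA7 and IAA16 were highest on control replicate 2 and that of IAA27 on drought replicate 2. Likeness of profiles was measured as the root mean square difference between standardised values over the 6 arrays, which is 0 for the same pattern and 1.83 for its mirror image. IAA7 and IAA16 were the closest members, at 0.299. Among the 895 other probe sets with a symbol, 0.335% were as close to IAA7 and 0.112% as close to IAA16. For the 10 pairs among these 5 genes the values ran from 0.299 to 0.754. The 2 probe sets of 1 gene were further apart than that in IAA27 (1.38) and IAA2 (0.913). These 5 genes were grouped by their highest array, and the closest pair was picked afterwards. The distances and shares above therefore do not test whether the profiles of the family are alike. IAA3 lay at 1.14 to 1.42 from the 5 and at 0.912 from ARF3, a distance within which 26.3% of the named probe sets lay from IAA3 and 31.2% from ARF3. Control replicate 3, on which the 5 genes were highest, lay nearer to each drought array than to the other controls over all probe sets. Its part in the pattern was not tested.

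**Figure D4:**
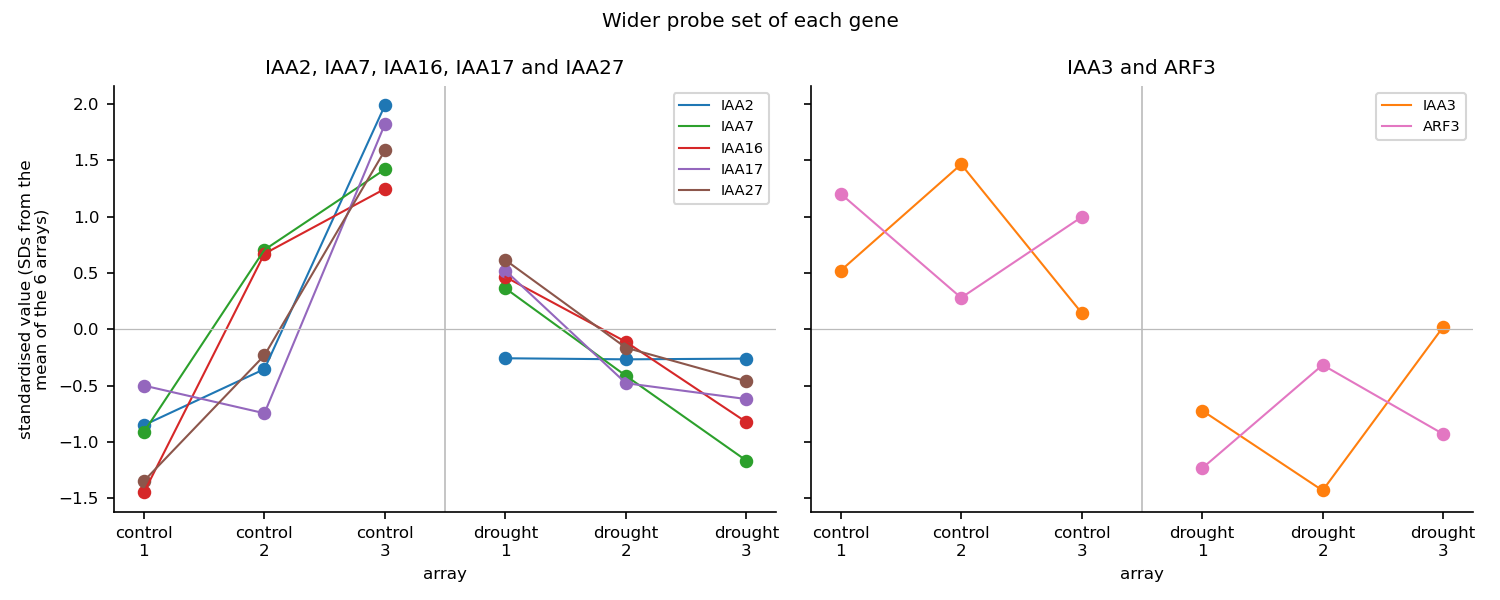
Standardised values (SDs from the mean of the 6 arrays, vertical axis) of the wider probe set are plotted by array for each gene, with lines joining the points of a gene within a group only to tell genes apart. On the left, IAA2, IAA7, IAA16, IAA17 and IAA27 are highest on control replicate 3. On the right, IAA3 and ARF3 lie higher on all control arrays than on any drought array.

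The named genes whose profiles were most like those of IAA3 and ARF3 were chosen by this distance among the 895 other probe sets with a symbol. Nearest to the wider probe set of IAA3 were the catalase gene cat1 (0.147), the ethylene response factor gene ERF3 (0.270) and NML2 (0.286). Their differences were -0.0022 for cat1, -0.018 for ERF3 and -0.0054 for NML2, and none passed the test (limma adjusted p = 0.220, 0.204 and 0.132). Nearest to the narrower probe set of ARF3 were BL2 (0.120), the MADS-box gene TDR8 (0.157) and LOC543787 (0.184). TDR8 read 8.948, 8.966 and 8.941 in control and 8.859, 8.881 and 8.869 in drought. Its difference of -0.083 ± 0.0094 (SE, limma adjusted p = 0.0531) was 558 times that of ARF3, so likeness here concerns the pattern over the arrays and not the size of the change. BL2 fell by 0.011 (limma adjusted p = 0.0388) and LOC543787 differed by -1.6e-05 (adjusted p = 0.0633).

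Few other genes of the auxin pathway could be found by name. A search of symbols and synonyms for receptors, transporters, biosynthesis genes, response genes and further Aux/IAA and ARF genes matched 6 probe sets of 4 genes outside the members. Of these, 3 genes were left out because the names stand for other enzymes, the arginase genes ARG1 and ARG2 and LOC543517, whose synonym LeARF1 is an arabinofuranosidase name. The 1 gene kept was ARPI, with 1 probe set that did not pass the test. It read 6.238, 6.201 and 6.259 in control and 6.195, 6.208 and 6.200 in drought. Control replicate 2 lay among the drought arrays, and the difference was -0.031 ± 0.017 (SE, limma adjusted p = 0.329), on a probe set below the 25th percentile of every array.

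**Figure D5:**
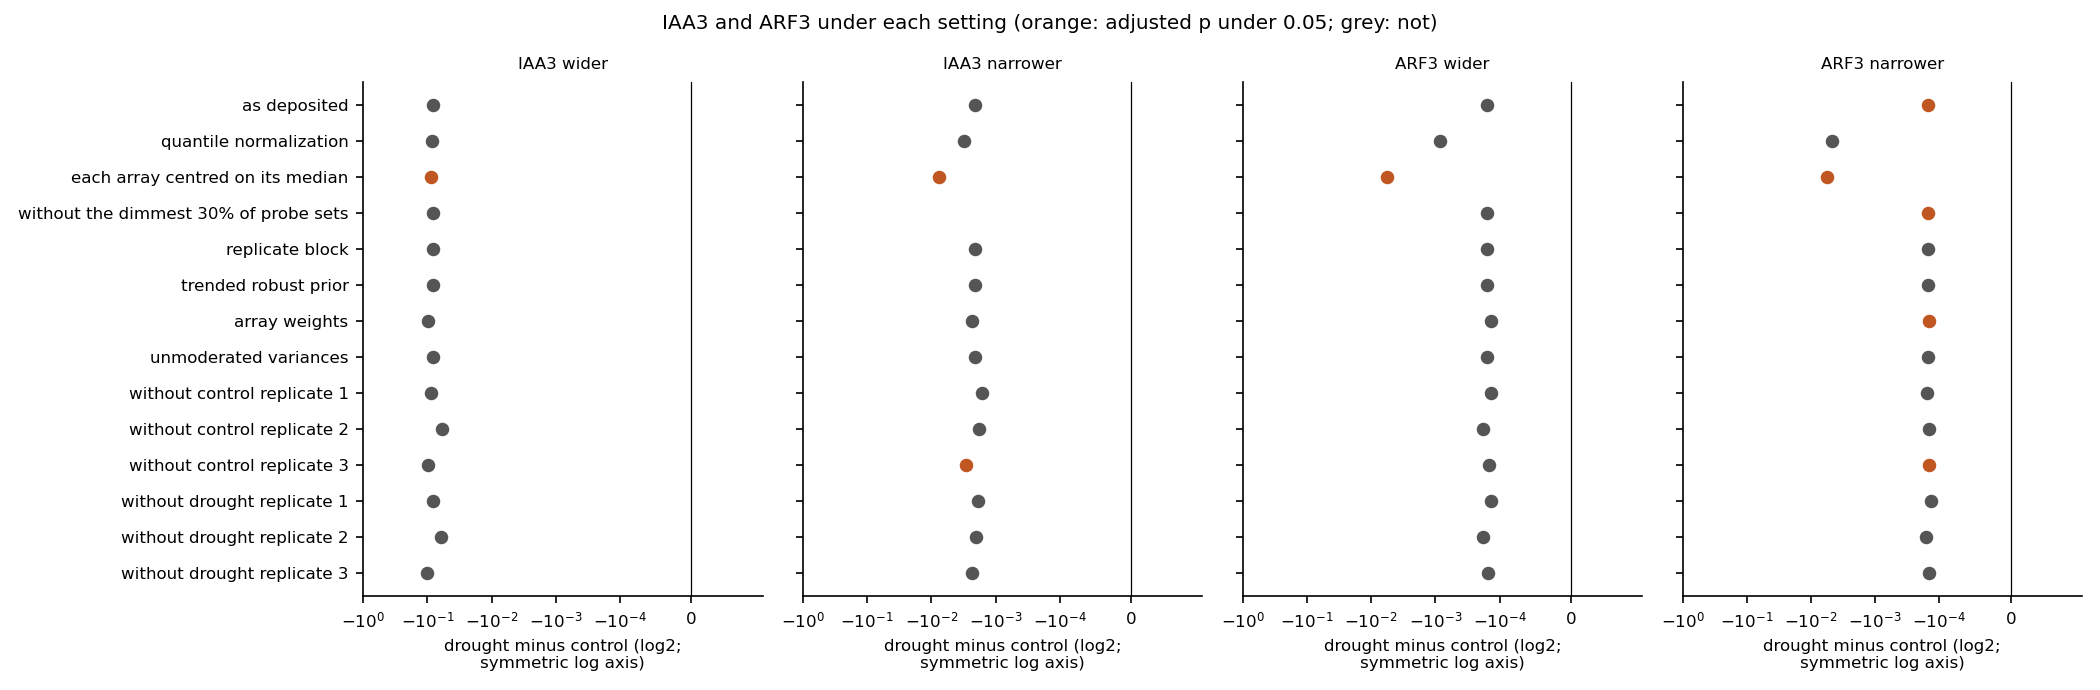
The drought minus control difference (log2, symmetric log axis) of the probe sets of IAA3 and ARF3 is plotted under each setting, in orange where the adjusted p was under 0.05. All points lie below 0. The differences of ARF3 move from -0.00015 as deposited to -0.0057 after each array is centred on its median, which is close to the shift that centring gives all probe sets (median -0.0055), and the wider IAA3 probe set stays between -0.060 and -0.102.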

How the data were processed

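The authors deposited 1 table of probe set values, taken as log2 from the values themselves (5.46 to 15.8). The background correction, normalization and summary behind it are not given in the sources used here, so these differences are not read as measured folds. Of 10209 rows, 108 were the manufacturer's controls and were not tested. Symbols came from the platform annotation, and 6 of the 7 member genes matched a RefSeq gene table (SLM_r2.1), IAA2 being the exception. No coordinates are given, since the array's build is not named. Sequences were not used here.

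The groups were compared by limma 3.58.1 under R 4.3.3, with lmFit, eBayes, two-sided p-values and Benjamini-Hochberg adjustment over 10101 probe sets, without a block or a filter. The procedure was also run on simulated data with independent noise, planted differences of 0.01 or more and no effect shared by an array. That run therefore does not bear on differences as small as those of ARF3 or on the part of control replicate 3. The members and lists were chosen with earlier results of these data known. The genes named are all member probe sets, the other auxin genes found by symbol or synonym, and the 3 named genes nearest in profile to the most variable and to the called member. Alternatives were quantile normalization, median centring, leaving out the dimmest 30%, a replicate block, a trended robust prior, array weights, unmoderated variances, leaving out each array, averaging probe sets and the linear scale. Every pair of arrays differed by over 0.1 in at least 47 probe sets, so none was a copy. The number of arrays limits the precision.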

Additional observations from a re-analysis of the deposited data

How the results depend on the processing

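The 77 calls over all probe sets became 0 after quantile normalization, 9406 after centring each array on its median (214 higher and 9192 lower, against 53 and 24 as deposited), 391 with array weights and 7 with unmoderated variances, and ran from 0 to 546 when 1 array was left out, the highest without control replicate 3. With the replicate number as a block there were 0 calls and ARF3 had an adjusted p of 0.115. Same-numbered arrays deviated from their group means with correlations of -0.092, -0.023 and -0.106, so the numbers are not taken as pairs. The 3511 probe sets without overlap became 9480 after centring and ran from 4120 to 5271 with 1 array left out. Member calls numbered 12 of 14 after centring and 2 without control replicate 3. The narrower probe sets of IAA2 and IAA7 turned to 8.7e-05 and 9.1e-05 after quantile normalization. The narrower probe set of IAA27 turned to -0.0015 there and to -0.0055 after centring, and its wider probe set to 9.7e-05 with array weights. With 1 array left out the range crossed 0 for the probe sets IAA2 wider (-0.00096 to 0.00030), IAA16 wider (-0.012 to 0.0026), IAA16 narrower (-8.0e-05 to 1.8e-05), IAA17 wider (-0.0046 to 0.0023), IAA27 wider (-0.00088 to 0.0010) and IAA27 narrower (-2.4e-07 to 9.4e-07). IAA3 and ARF3 kept their direction under all settings run. The causes were not tested. Leaving out the dimmest 30% removed 6 member probe sets.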
